A study of Mus musculus with 6 samples.

Results

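Lysosomes are acid, membrane-bound compartments in which proteins, glycans, lipids and whole organelles are taken apart. Most of their soluble hydrolases are made in the endoplasmic reticulum, tagged with mannose 6-phosphate and carried to the lysosome, where a proton pump keeps the interior acid and cysteine cathepsins are activated by proteolysis. In liver, hepatocytes are rich in lysosomes, and macrophages, which engulf particles and dead cells, carry especially many. Transcription factors of the MiT family, with TFEB as the best known member, bind E-box type motifs near many lysosomal genes.

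The genes described here were 32 named mouse genes for lysosomal hydrolases, their activators, lysosomal membrane proteins and the lysosomal glycoprotein progranulin. They were selected by symbol, under a rule that uses no measured value, although the list was drawn up with earlier results of these data known: each symbol had to match an Ensembl identifier of the deposited count table, which holds 41388 identifiers, and all 32 matched 1 identifier each. Liver RNA came from BALB/c mice in which carbon tetrachloride (CCl4), a liver toxin, had been given for 5 weeks to induce fibrosis. One group of 3 libraries, titled Al/NP high and here Al/NP, came from mice that also received nanoparticles loaded with alendronate, a bisphosphonate, at 4 mg/kg alendronate in 2 injections per week over the last 2 weeks. The other 3 libraries came from fibrotic controls that the labels call untreated. The treatment protocol is worded identically for all 6 samples, so the group was taken from the sample titles. The labels give neither sex nor age, name no healthy liver, and include no group given particles without drug, so drug, carrier and injections cannot be told apart. They number the replicates without saying that each is a separate animal, so the tests measure the spread between these samples. Libraries were made from polyadenylated RNA of tissue from each liver lobe, and bulk RNA of this kind cannot tell more cells of a type from more RNA per cell.

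Library totals ranged from 30554483 to 39838428 counts. Control replicate 3 stood apart, with a TMM scaling factor of 0.809 against 0.937 to 1.13 in the other libraries and with 26.7% of its counts from mitochondrially encoded genes against 11.96% to 19.8%. Hepatocyte markers were abundant in all libraries: the summed level of 9 markers lay between 55245 and 85370 CPM (counts scaled by TMM library size).

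All 32 genes passed the filter on low counts and were tested among 15939 genes. The Al/NP libraries had the higher fitted level in 31 of the 32, whereas 50.0% of all genes tested had a log2 fold change above 0. The median log2 fold change of the 32 genes was 0.49, that of all genes tested was 0.00, and the values ran from -0.13 for Npc1 to 1.11 for Lgmn. No gene of the 32 passed the edgeR quasi-likelihood test at an adjusted p of 0.05 over all genes, where 0.0816% of all genes tested passed and 0.0627% passed as higher. At an unadjusted p under 0.05 there were 18 of 32, all higher with Al/NP, where 9.37% of all genes tested were higher and 10.3% lower at that level. DESeq2, the other count test, called 7 of 32, all higher, where it called 5.07% of genes with an adjusted p and 2.59% as higher; these were Npc2, Ctsc, Grn, Psap, Lgmn, Ctsd and Gaa. Every Al/NP library lay above every control in 20 of the 32 genes, the groups overlapped in the remaining 12, and among all genes tested 14.5% lay apart in that direction and 29.5% in either direction. Without control replicate 3, 31 of 32 genes had a log2 fold change above 0, 19 had an unadjusted p under 0.05, and the median was 0.40. With each of the other libraries left out in turn, the count at an unadjusted p under 0.05 was lower: leaving out Al/NP replicates 1, 2 and 3 gave 12, 15 and 12 genes, and leaving out control replicates 1 and 2 gave 16 and 15. The share of all genes tested that were higher at that level was lower too, in that order at 6.73%, 7.19%, 8.15%, 8.36% and 6.64%. Without control replicate 3 that share was 9.47%.

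**Figure D1:**
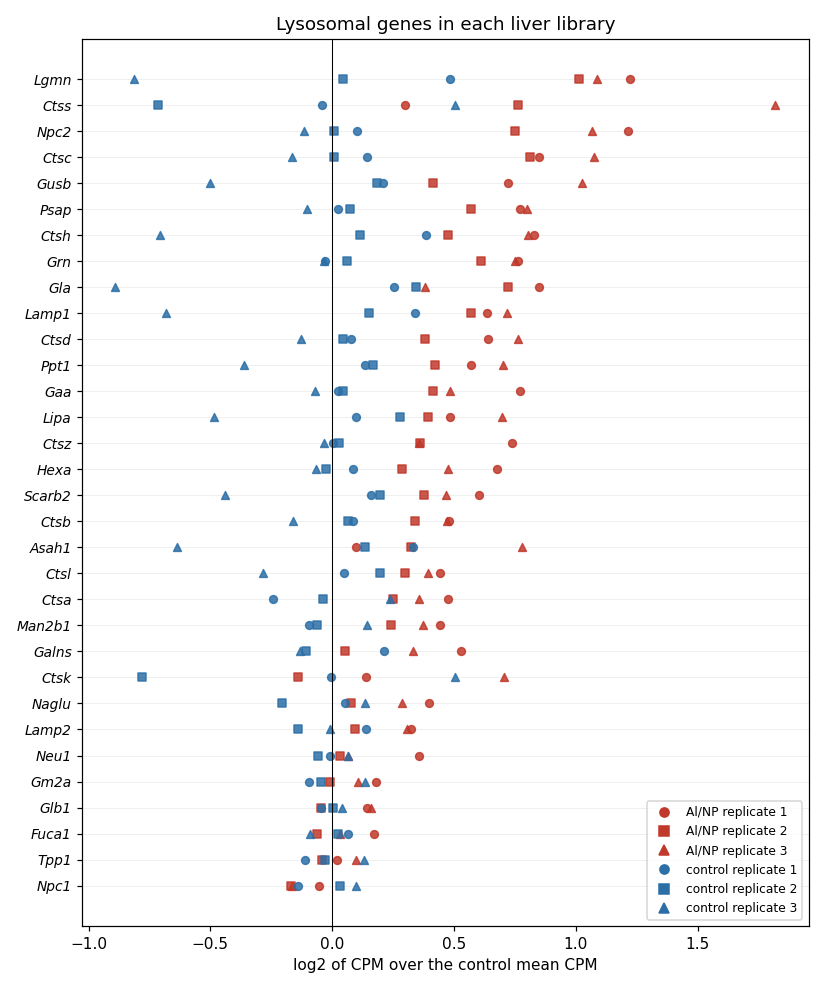
CPM of each of the 32 lysosomal genes in each of the 6 libraries, as log2 of the ratio to the control mean, with genes ordered by fitted log2 fold change; red symbols are Al/NP and blue symbols control libraries, and the shape gives the replicate number. From Lgmn down to Ctsb the red symbols lie to the right of the blue ones in every row but that of Ctss, and control replicate 3 is the leftmost symbol in 21 of 32 rows.

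The 32 genes together took 4440 to 5055 CPM in the Al/NP libraries and 3039 to 3598 CPM in controls, so their summed level did not overlap between the groups. In raw counts, without any scaling, they took 0.473%, 0.485% and 0.565% of Al/NP replicates 1 to 3 and 0.383%, 0.359% and 0.246% of control replicates 1 to 3. Per kilobase of exon, Ctsz stood highest at 185 CPM, followed by Psap at 130.0, Ctsd at 126, Lamp1 at 115, Ctsb at 101 and Ctsl at 93.7, and Ctsk stood lowest at 1.67. Across these genes Spearman's rho between level per kilobase and log2 fold change was 0.32 (n = 32 genes, which share the same 6 libraries). Within the Al/NP group, replicate 2 had the lowest value in 28 of 32 genes. Among controls, replicate 3 had the lowest value in 21 genes and the highest in 10.

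Promoter sequences were searched for E-box type motifs around the start of these genes. RefSeq promoter windows of GRCm38.p6, from 250 bases before to 50 after a start, were at hand for 27 of the 32 genes. The E-box CACGTG, which reads the same on both strands, was present in 9 of these 27 genes (33.3%), against 11.4% of 10956 tested genes with a window and 8.09% of all 27025 genes with one. Its extended form TCACGTG, searched on both strands and always overlapping an E-box, was present in 8 of 27 genes (29.6%), against 6.71% of tested genes and 4.29% of all genes. The 10-base CLEAR palindrome, which adds a G before and AC after that form, was present in 0 of 27 genes, against 0.748% of tested genes and 0.370% of all genes. Lamp1 held 4 E-boxes, Ctsa, Ctsd and Gla held 2 each, and Ctsl, Gaa, Glb1, Lgmn and Naglu held 1 each. Those of Lamp1, Lgmn, Gaa and Glb1 are printed because they lie in stretches before the start without an annotated exon and because these genes span the range of measured differences; letters are 5′ to 3′ on the strand of the gene, with each E-box in capitals.
Lamp1, chr8:13159080-13159160, plus strand: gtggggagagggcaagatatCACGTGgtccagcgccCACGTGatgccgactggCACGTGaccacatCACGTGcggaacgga
Lgmn, chr12:102439116-102439161, minus strand, before the inner of its 2 RefSeq starts: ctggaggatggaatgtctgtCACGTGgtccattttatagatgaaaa
Gaa, chr11:119267803-119267848, plus strand: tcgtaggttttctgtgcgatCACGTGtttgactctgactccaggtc
Glb1, chr9:114401010-114401055, plus strand: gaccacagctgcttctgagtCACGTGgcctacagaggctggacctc
The median log2 fold change was 0.58 over the 8 genes with TCACGTG, running from 0.09 for Glb1 to 1.11 for Lgmn, and 0.49 over the 19 genes without it, running from 0.02 for Tpp1 to 1.11 for Ctss. A match describes these letters only and was not tested as a binding site.

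The 8 cysteine proteases all had a log2 fold change above 0, with a median of 0.60; 6 had an unadjusted p under 0.05 and 6 had groups that did not overlap. Ctsc (chromosome 7, 88278085 to 88310888) encodes cathepsin C, the dipeptidyl peptidase that activates serine proteases of neutrophils and other leukocytes. It measured 68.5, 66.7 and 80.1 CPM in Al/NP replicates 1 to 3 and 42.0, 38.2 and 33.9 CPM in control replicates 1 to 3. Each Al/NP library was above each control, and the means were 71.8 ± 7.27 CPM (SD, n = 3) and 38.0 ± 4.04 CPM, a log2 fold change of 0.92 (SE 0.152, adjusted p = 0.0783). Lgmn (chromosome 12, 102394084 to 102439813) encodes legumain, the asparaginyl endopeptidase that processes other cathepsins and antigens. Its level was 207, 179.7 and 189 CPM in Al/NP replicates 1 to 3 and 125, 91.7 and 50.7 CPM in control replicates 1 to 3. The Al/NP libraries lay close together and the controls were spread, with control replicate 3 lowest; the log2 fold change was 1.11 (SE 0.289, adjusted p = 0.137) and 0.83 without control replicate 3.

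Ctss (chromosome 3, 95526786 to 95556403) encodes cathepsin S, which trims the invariant chain of MHC class II molecules in antigen-presenting cells. It measured 30.4, 41.9 and 87.2 CPM in Al/NP replicates 1 to 3 and 24.0, 15.1 and 35.1 CPM in control replicates 1 to 3. Al/NP replicate 3 was far above the other libraries, Al/NP replicate 1 was below control replicate 3, and the groups overlapped. The log2 fold change of 1.11 (SE 0.430, adjusted p = 0.222) became 0.55 without Al/NP replicate 3. Ctsh, for the aminopeptidase cathepsin H, measured 112, 88.0 and 111 CPM in Al/NP replicates 1 to 3 and 82.7, 68.5 and 38.8 CPM in control replicates 1 to 3. Control replicate 3 was lowest here too, and the log2 fold change was 0.71 (SE 0.262, adjusted p = 0.203), or 0.45 without that library.

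The most abundant cysteine cathepsins in CPM were the endopeptidases Ctsb and Ctsl. Ctsb (chromosome 14, 63122462 to 63145923) measured 729, 661 and 723 CPM in Al/NP replicates 1 to 3 and 554, 547 and 467 CPM in control replicates 1 to 3, a log2 fold change of 0.43 (SE 0.160, adjusted p = 0.204). Fdft1, a gene of cholesterol synthesis on the opposite strand, shares 774 exon bases with Ctsb and had 11.5 counts per 100 of Ctsb. For Ctsl the level was 717, 651 and 693 CPM in Al/NP replicates 1 to 3 and 547, 605 and 434 CPM in control replicates 1 to 3, a log2 fold change of 0.38 (SE 0.178, adjusted p = 0.277) that was 0.25 without control replicate 3. Neither gene overlapped between the groups. Ctsz, for the carboxypeptidase cathepsin Z, measured 369, 284 and 284 CPM in Al/NP replicates 1 to 3 and 223, 226 and 217 CPM in control replicates 1 to 3, with a log2 fold change of 0.50 (SE 0.164, adjusted p = 0.179); the controls had an SD of 4.66 CPM and Al/NP replicate 1 was highest. Ctsk, for the collagen-degrading cathepsin K known from osteoclasts, was the least abundant of the 32 genes, at 2.50, 2.06 and 3.71 CPM in Al/NP replicates 1 to 3 and 2.27, 1.33 and 3.23 CPM in control replicates 1 to 3. Its groups overlapped and its log2 fold change of 0.28 (SE 0.371, adjusted p = 0.688) was -0.01 with control replicate 2 left out and 0.62 with control replicate 3 left out.

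Among the proteases of other classes, the aspartic protease cathepsin D had the largest difference. Its gene Ctsd (chromosome 7, 142375911 to 142388038) measured 365, 305 and 398 CPM in Al/NP replicates 1 to 3 and 247, 242 and 214 CPM in control replicates 1 to 3, without overlap, and had a log2 fold change of 0.60 (SE 0.165, adjusted p = 0.144 by edgeR and 0.0228 by DESeq2). Ctsa, for cathepsin A, the serine carboxypeptidase that also protects neuraminidase and beta-galactosidase, was at 156, 133 and 144 CPM in Al/NP replicates 1 to 3 and 95.1, 109 and 133 CPM in control replicates 1 to 3. The highest control lay close under the lowest Al/NP library, Pltp on the opposite strand had 16.1 counts per 100 of Ctsa, and the log2 fold change was 0.36 (SE 0.169, adjusted p = 0.273). Tpp1, for tripeptidyl peptidase 1, measured 87.4, 83.7 and 92.3 CPM in Al/NP replicates 1 to 3 and 79.8, 84.6 and 94.5 CPM in control replicates 1 to 3. These ranges overlapped almost entirely: the log2 fold change was 0.02 (SE 0.141, adjusted p = 0.937). Leaving out Al/NP replicate 3 gave -0.01, leaving out control replicate 1 gave -0.03, and leaving out control replicate 3 gave 0.09.

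**Figure D2:**
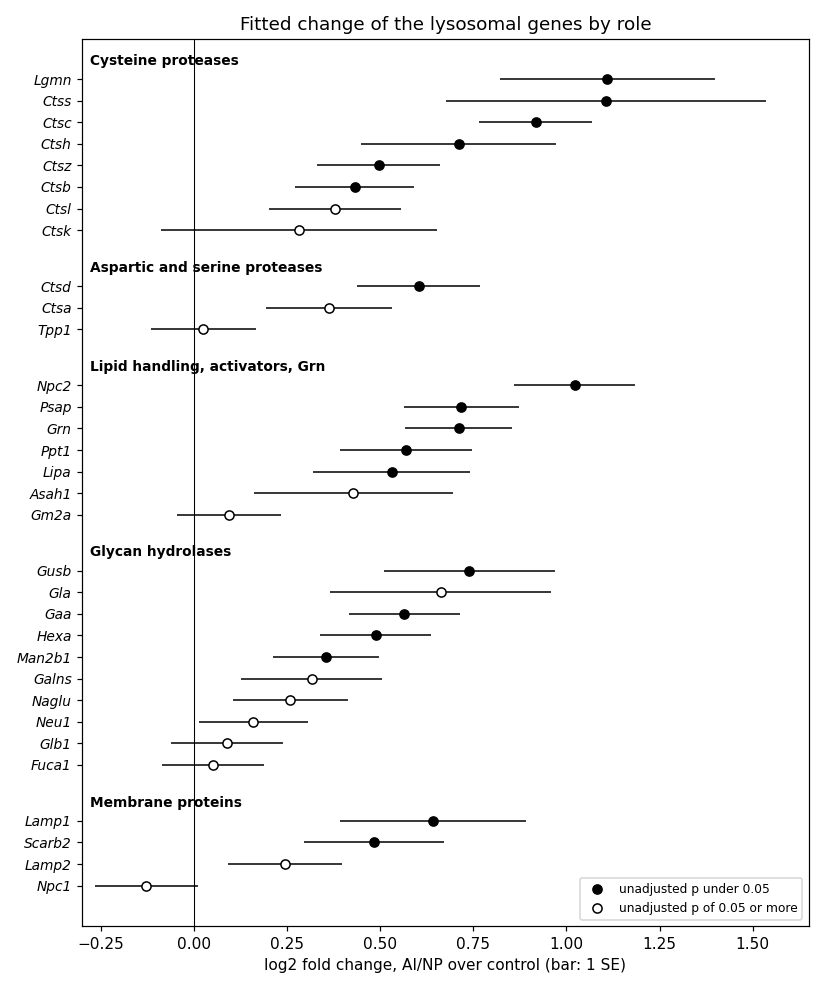
Fitted log2 fold change of Al/NP over control for the 32 lysosomal genes, grouped by role, with bars of 1 SE; filled points have an unadjusted p under 0.05. All points but that of Npc1, at -0.13, lie above 0, and the filled points are found in every role.

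Of 7 genes for lipid handling, activators and progranulin, 5 had an unadjusted p under 0.05 and groups apart, and the median log2 fold change was 0.57. Npc2 (chromosome 12, 84754562 to 84773152) encodes the soluble protein that takes cholesterol up inside the lysosome and hands it to the membrane protein NPC1. It measured 82.5, 59.7 and 74.3 CPM in Al/NP replicates 1 to 3 and 38.1, 35.7 and 32.8 CPM in control replicates 1 to 3. All Al/NP libraries lay above all controls, at 72.2 ± 11.5 CPM (SD, n = 3) against 35.5 ± 2.66 CPM, a log2 fold change of 1.02 (SE 0.163, adjusted p = 0.0783 by edgeR and 4.42e-05 by DESeq2). Its p-value ranked 30 among the 15939 genes tested.

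Grn (chromosome 11, 102430315 to 102437048) encodes progranulin, a secreted and lysosomal glycoprotein abundant in macrophages. Its libraries were tightly grouped, at 293, 264 and 291 CPM in Al/NP replicates 1 to 3 and 169, 180.3 and 169 CPM in control replicates 1 to 3. The means of 283 ± 16.2 CPM (SD, n = 3) and 173 ± 6.48 CPM corresponded to a log2 fold change of 0.71 (SE 0.143, adjusted p = 0.0998). Psap (chromosome 10, 60277627 to 60302597) encodes prosaposin, which binds progranulin and is cleaved into the saposins that present sphingolipids to their hydrolases. It measured 461, 400.2 and 469.7 CPM in Al/NP replicates 1 to 3 and 274, 284 and 251 CPM in control replicates 1 to 3. The groups did not overlap, and the log2 fold change was 0.72 (SE 0.155, adjusted p = 0.108). With any one library left out, Grn stayed between 0.68 and 0.76 and Psap between 0.67 and 0.79 on the log2 scale.

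Ppt1, for palmitoyl-protein thioesterase 1, which removes fatty acids from proteins, measured 25.9, 23.4 and 28.3 CPM in Al/NP replicates 1 to 3 and 19.2, 19.6 and 13.6 CPM in control replicates 1 to 3. Its groups were apart, with a log2 fold change of 0.57 (SE 0.176, adjusted p = 0.161). Cap1, on the opposite strand, shares 129 exon bases with Ppt1 and had 575 counts per 100 of Ppt1, and as the strand setting of the counting is not given, the Ppt1 count is uncertain. Lipa, for lysosomal acid lipase, which frees cholesterol from cholesteryl esters, was at 135, 126 and 156 CPM in Al/NP replicates 1 to 3 and 103, 117 and 68.8 CPM in control replicates 1 to 3. The log2 fold change of 0.53 (SE 0.211, adjusted p = 0.224) was 0.34 without control replicate 3. Asah1, for acid ceramidase, ranged from 18.3 to 29.3 CPM with Al/NP and from 11.0 to 21.5 CPM in controls, and Gm2a, for the GM2 ganglioside activator, from 63.9 to 72.7 CPM and from 60.1 to 70.5 CPM. In these genes the groups overlapped, with log2 fold changes of 0.43 (SE 0.267) and 0.09 (SE 0.141). With 1 library left out, Asah1 ranged from 0.19 (control replicate 3 out) to 0.63 (control replicate 1 out), and Gm2a from 0.05 (control replicate 1 out) to 0.16 (control replicate 3 out).

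The 10 glycan hydrolases had a median log2 fold change of 0.34; 4 had an unadjusted p under 0.05 and 5 had groups apart. Gaa (chromosome 11, 119267887 to 119285454) encodes acid alpha-glucosidase, which degrades glycogen in lysosomes. It measured 78.0, 60.9 and 63.8 CPM in Al/NP replicates 1 to 3 and 46.4, 47.1 and 43.5 CPM in control replicates 1 to 3, a log2 fold change of 0.56 (SE 0.149, adjusted p = 0.140 by edgeR and 0.0378 by DESeq2). Hexa, for the alpha subunit of beta-hexosaminidase, had 51.4, 39.1 and 44.7 CPM in Al/NP replicates 1 to 3 and 34.1, 31.6 and 30.7 CPM in control replicates 1 to 3. Here too the groups were apart, and the log2 fold change was 0.49 (SE 0.149, adjusted p = 0.159). Gusb, for beta-glucuronidase, was at 27.8, 22.4 and 34.3 CPM in Al/NP replicates 1 to 3 and 19.5, 19.2 and 11.9 CPM in control replicates 1 to 3. Control replicate 3 was lowest and Al/NP replicate 3 highest, and the log2 fold change was 0.74 (SE 0.230, adjusted p = 0.163).

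Man2b1, for lysosomal alpha-mannosidase, showed 73.5, 63.9 and 70.0 CPM in Al/NP replicates 1 to 3 and 50.6, 51.8 and 59.8 CPM in control replicates 1 to 3. This was the smallest difference among genes with an unadjusted p under 0.05, at 0.35 (SE 0.143, adjusted p = 0.227). Gla, for alpha-galactosidase A, measured 30.5, 27.9 and 22.0 CPM in Al/NP replicates 1 to 3 and 20.2, 21.5 and 9.13 CPM in control replicates 1 to 3. The groups lay apart by a narrow gap, and the log2 fold change of 0.66 (SE 0.297, adjusted p = 0.260) was 0.36 without control replicate 3. Fuca1, for alpha-L-fucosidase, had 53.7, 45.7 and 48.7 CPM in Al/NP replicates 1 to 3 and 49.8, 48.4 and 44.8 CPM in control replicates 1 to 3. Its groups overlapped, with a log2 fold change of 0.05 (SE 0.137, adjusted p = 0.860); it was -0.01 with Al/NP replicate 1 left out, 0.10 with Al/NP replicate 2 left out and 0.00 with control replicate 3 left out.

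The remaining 4 glycan hydrolases overlapped between groups. Galns, for a sulfatase of keratan sulfate, had a log2 fold change of 0.32 (SE 0.189), from 0.20 with Al/NP replicate 1 left out to 0.44 with control replicate 1 left out. For Naglu, whose enzyme degrades heparan sulfate, it was 0.26 (SE 0.155), from 0.16 with control replicate 2 left out to 0.34 with Al/NP replicate 2 left out. Neu1, for the lysosomal sialidase, was at 0.16 (SE 0.147), from 0.05 with Al/NP replicate 1 left out to 0.22 with Al/NP replicate 2 left out. Glb1, for beta-galactosidase, was at 0.09 (SE 0.151), from 0.05 with Al/NP replicate 3 left out to 0.15 with Al/NP replicate 2 left out. Tmppe lies on the same strand, shares 165 exon bases with Glb1 and had 71.2 counts per 100 of Glb1. Cathepsin A, neuraminidase and beta-galactosidase form a complex in the lysosome, and the log2 fold changes of Ctsa, Neu1 and Glb1 stood at 0.36, 0.16 and 0.09, none with an unadjusted p under 0.05.

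Of the 4 membrane proteins, Lamp1 and Scarb2 had groups apart and Lamp2 and Npc1 did not. Lamp1 (chromosome 8, 13159161 to 13175338) encodes the heavily glycosylated protein that lines the lysosomal membrane. It measured 372, 355 and 393 CPM in Al/NP replicates 1 to 3 and 303, 266 and 149 CPM in control replicates 1 to 3. The Al/NP libraries were alike and control replicate 3 was far below the other controls, so that the log2 fold change of 0.64 (SE 0.250, adjusted p = 0.217) was 0.39 without it. Scarb2, for LIMP-2, which carries beta-glucocerebrosidase to the lysosome, had 47.4, 40.5 and 43.1 CPM in Al/NP replicates 1 to 3 and 34.9, 35.7 and 23.0 CPM in control replicates 1 to 3. That gave a log2 fold change of 0.48 (SE 0.189, adjusted p = 0.217), or 0.30 without control replicate 3. Lamp2, for the membrane protein of chaperone-mediated autophagy, ranged from 174 to 204 CPM with Al/NP and from 148 to 180 CPM in controls, with a log2 fold change of 0.24 (SE 0.154, adjusted p = 0.388).

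Npc1 (chromosome 18, 12189692 to 12236400), the membrane partner of NPC2 in cholesterol export, was the only gene of the 32 with a fitted value below 0. It measured 67.0, 61.8 and 62.0 CPM in Al/NP replicates 1 to 3 and 63.1, 71.2 and 74.3 CPM in control replicates 1 to 3. The ranges overlapped, and the log2 fold change was -0.13 (SE 0.138, adjusted p = 0.620). It was -0.19 with control replicate 1 left out and -0.08 with control replicate 3 left out; with library totals as the only scaling it was 0.01, where the median of all genes tested was 0.13. Rmc1, on the opposite strand, shares 511 exon bases with Npc1 and had 32 counts per 100 of Npc1. Because NPC1 and NPC2 act in sequence, their difference was compared within each library, a choice made after the values were seen. Npc2 minus Npc1 in log2 CPM was 0.30, -0.05 and 0.26 in Al/NP replicates 1 to 3 and -0.73, -0.99 and -1.18 in control replicates 1 to 3. The groups did not overlap and their means differed by 1.14 (0.17 ± 0.19 against -0.97 ± 0.23, SD, n = 3), with p = 0.1 by a two-sided exact permutation test, the smallest that 3 against 3 libraries allows. It was 1 of 3 gene pairs computed, all picked with earlier results of these data known, so their p-values describe these values only. Lamp1 minus Lamp2 was 0.86, 1.03 and 0.96 in Al/NP replicates 1 to 3 and 0.75, 0.84 and -0.12 in control replicates 1 to 3. Control replicate 3 lay far below the other controls, and control replicate 2 lay close under the lowest Al/NP library. For Lamp1 minus Lamp2 the group means differed by 0.46 (control SD 0.53) and for Ctsc minus Tpp1 by 0.89. Each had the same exact p of 0.1 by that permutation test (0.1 after Benjamini-Hochberg adjustment over the 3). Ctsc had a log2 fold change of 0.92 and Tpp1 of 0.02, so the difference of that pair restates values given above.

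Other genes of the lysosomal pathway were taken from lists rather than by their values. Among all genes tested, 9.37% were higher and 10.3% lower at an unadjusted p under 0.05. Higher at that level were 17.6% of the other hydrolases and 36.8% of the V-ATPase subunits below. DESeq2 called 2.59% of all genes with an adjusted p as higher. A list of 34 genes headed other lysosomal hydrolases, all tested, also holds the membrane protein genes Glmp and Tmem55b. Of these 34, 26 had a log2 fold change above 0, and the median was 0.25. By edgeR 0 were called, and 6 were higher and 0 lower at an unadjusted p under 0.05, with DESeq2 calling 2 as higher. The lowest p-values were those of the serine carboxypeptidase gene Scpep1 at 0.62 (SE 0.131, adjusted p = 0.104), of Ctsf, for cathepsin F, at 0.77 (SE 0.195, adjusted p = 0.132) and of the ribonuclease gene Rnaset2b at 0.48 (SE 0.163, adjusted p = 0.185). Scpep1 measured 39.6, 36.4 and 39.9 CPM in Al/NP replicates 1 to 3 and 26.5, 23.5 and 25.3 CPM in control replicates 1 to 3, with the groups well apart. Subunits of the V-ATPase, the proton pump that makes lysosomes acid, had a median of 0.25, with 15 of 19 above 0, 7 higher and 0 lower at an unadjusted p under 0.05, 0 called by edgeR and 1 called as higher by DESeq2. They were led by the membrane-sector genes Atp6v0b at 0.69 (SE 0.196, adjusted p = 0.147) and Atp6v0c at 0.55 (SE 0.176, adjusted p = 0.172) and by the accessory subunit Atp6ap2 at 0.59 (SE 0.175, adjusted p = 0.153). With 1 library left out, the V-ATPase median ranged from 0.16 (Al/NP replicate 1 out) to 0.33 (Al/NP replicate 3 out).

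At an unadjusted p under 0.05, 12.9% of other lysosomal membrane proteins and 12.5% of sorting and maturation genes were higher. The share of all genes tested was 9.37%, with 10.3% lower. Other lysosomal membrane proteins, 31 tested of 34, did not lean either way: the median was -0.04, with 14 above and 17 below 0, 4 higher and 1 lower at an unadjusted p under 0.05, and 0 called by edgeR or DESeq2. The smallest p-values there belonged to Tmem192 at 0.85 (SE 0.267, adjusted p = 0.166), the amino acid sensor gene Slc38a9 at -0.46 (SE 0.155, adjusted p = 0.184) and Laptm4b at 0.76 (SE 0.281, adjusted p = 0.203). With 1 library left out, that median ranged from -0.07 (control replicate 1 out) to 0.05 (Al/NP replicate 1 out). Genes of enzyme sorting and maturation had a median of 0.16 (0.10 with Al/NP replicate 1 left out), with 13 of 16 above 0, 2 higher and 0 lower at an unadjusted p under 0.05, and 0 called by edgeR or DESeq2; Gga2, for a sorting adaptor, was at 0.49 (SE 0.193, adjusted p = 0.222) and Nagpa, for the enzyme that uncovers the mannose 6-phosphate tag, at 0.32 (SE 0.135, adjusted p = 0.238). Among cystatins, the inhibitors of cysteine cathepsins, 2 of 8 genes passed the filter on low counts: Cstb at 0.80 (SE 0.311, adjusted p = 0.217) and Cst3 at 0.22 (SE 0.153, adjusted p = 0.438).

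**Figure D3:**
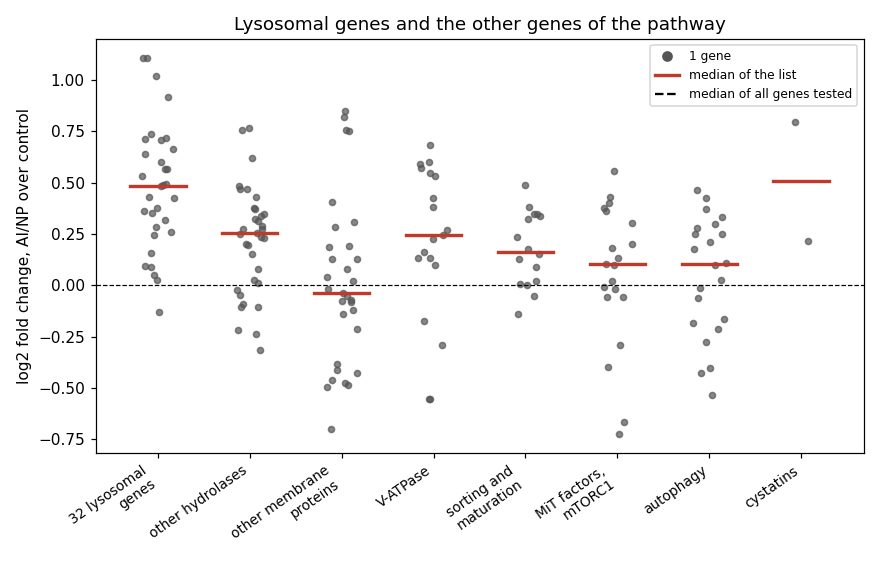
Log2 fold change of Al/NP over control for the 32 lysosomal genes and for 7 lists of other genes of the pathway; each point is 1 gene, the red line is the median of the list and the dashed line the median of all genes tested. The 32 genes have a median of 0.49, other hydrolases and V-ATPase subunits 0.25 each, and other membrane proteins -0.04; the cystatin column holds 2 genes.

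Regulators were mixed. MiT factors and genes of mTORC1 control had a median of 0.10, which was 0.05 with Al/NP replicate 1 left out, 0.06 with Al/NP replicate 3 left out and 0.06 with control replicate 2 left out, with 12 of 20 above 0, 3 higher and 3 lower at an unadjusted p under 0.05 and 0 called by edgeR or DESeq2. Tfeb measured 9.38, 10.6 and 10.4 CPM in Al/NP replicates 1 to 3 and 12.2, 10.2 and 14.9 CPM in control replicates 1 to 3, with overlap and a log2 fold change of -0.29 (SE 0.176, adjusted p = 0.369). Its relative Tfe3 was at 37.9, 38.1 and 32.3 CPM against 31.2, 31.2 and 20.9 CPM, without overlap and with a log2 fold change of 0.38 (SE 0.184, adjusted p = 0.286). Mitf was at -0.02 (SE 0.261, adjusted p = 0.977). The smallest p-values of the list were on the lower side: Fnip2 and Fnip1, whose proteins partner folliculin, were at -0.73 (SE 0.207, adjusted p = 0.147) and -0.40 (SE 0.135, adjusted p = 0.184), and Zkscan3, known as a repressor of autophagy and lysosomal genes, at -0.67 (SE 0.214, adjusted p = 0.171). Each of these 3 had all Al/NP libraries below all controls. They were the only genes of the 20 apart in that direction, whereas 4 were apart as higher and 13 overlapped. Among all 15939 genes tested, 2388 lay apart as lower and 2310 as higher, so the 3 lower genes do not stand out by number. Autophagy genes had a median of 0.10 (0.06 with control replicate 1 left out and 0.06 with control replicate 3 left out), with 13 of 22 above 0, 2 higher and 2 lower at an unadjusted p under 0.05 and 0 called by edgeR or DESeq2; Wipi1 was at -0.53 (SE 0.195, adjusted p = 0.201), Atg13 at 0.37 (SE 0.154, adjusted p = 0.233) and the autophagy receptor gene Nbr1 at -0.43 (SE 0.178, adjusted p = 0.240).

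Several lysosomal genes are expressed strongly in macrophages and neutrophils, so markers of these cells were set beside them. Mean log2 CPM over the 32 lysosomal genes, relative to the control mean, was 0.55, 0.35 and 0.58 in Al/NP replicates 1 to 3 and 0.11, 0.02 and -0.13 in control replicates 1 to 3. For 12 macrophage markers the same quantity was 0.65, 0.97 and 1.40 with Al/NP and -0.08, -0.35 and 0.43 in controls. All 12 had a log2 fold change above 0, with a median of 0.99, and their summed level ran from 517 to 714 CPM with Al/NP and from 251 to 345 CPM in controls. Groups lay apart as higher for 6 of these markers and overlapped for 6, where 14.5% of all genes tested lay apart as higher. Adgre1 and Csf1r were among those that overlapped, at 1.11 and 0.73. Without Al/NP replicate 3 these 2 were at 0.62 and 0.30. Of these 12, Cd68 and Laptm5 encode lysosomal membrane proteins; Cd68 was at 0.45 (SE 0.148, adjusted p = 0.177) and Laptm5 at 1.44 (SE 0.278, adjusted p = 0.0970). For 8 tested neutrophil markers of 12 the level was 0.43, 1.11 and 1.79 with Al/NP and -0.02, -0.35 and 0.36 in controls, and the sum over all 12 ran from 36.2 to 82.7 CPM and from 19.7 to 35.9 CPM. Of the 8 tested, 4 had groups apart as higher and 4 overlapped. Kupffer cell markers summed to 88.7 to 131 CPM with Al/NP and 58.9 to 87.1 CPM in controls, with 7 of 9 above 0. In mean log2 CPM relative to the control mean, however, the groups overlapped. Al/NP replicates 1 to 3 were at 0.22, 0.13 and 0.80, and control replicates 1 to 3 at -0.09, -0.08 and 0.16. The markers below 0 were Cd163 at -1.28 (SE 0.410, edgeR adjusted p = 0.172) and Clec4f at -0.20 (SE 0.344, edgeR adjusted p = 0.763). No macrophage, Kupffer or neutrophil marker was at 0 counts in all libraries.

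The order of the libraries was the same only in part for markers and lysosomal genes. Al/NP replicate 3 was highest for the macrophage markers, the neutrophil markers and the 32 lysosomal genes, at 1.40, 1.79 and 0.58. Al/NP replicate 1 had the lowest macrophage marker level of its group and stood next to the highest for lysosomal genes. Control replicate 3 had the highest macrophage and neutrophil marker level among controls and the lowest mean level of the 32 lysosomal genes. Its scaling factor and mitochondrial share also stood apart from those of the other libraries. Ctss, Ctsk, Tpp1 and Glb1 had their highest Al/NP value and their highest control value in replicate 3, as did the macrophage and neutrophil marker levels. Summed hepatocyte markers ran from 55245 to 63917 CPM with Al/NP and from 65841 to 85370 CPM in controls, with 3 of 9 above 0. Summed fibroblast and stellate markers overlapped, at 327 to 704 CPM and 344 to 884 CPM, as did dendritic, lymphocyte and endothelial markers; cholangiocyte markers ran from 17.9 to 45.6 CPM and from 16.3 to 20.5 CPM, with Al/NP replicate 1 highest. The part of these cell type differences in the levels of the lysosomal genes was not tested.

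**Figure D4:**
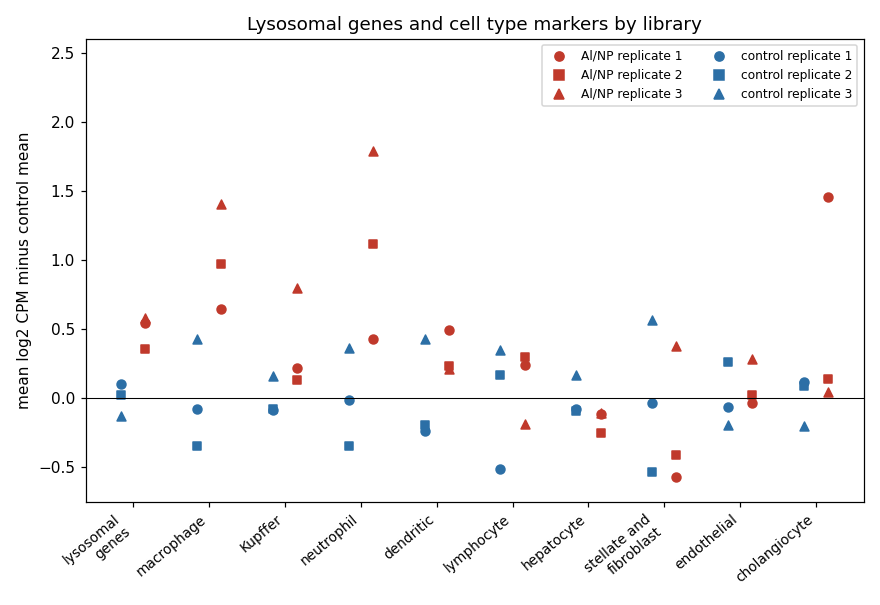
Mean log2 CPM minus the control mean, by library, for the 32 lysosomal genes and for 9 lists of cell type markers; red symbols are Al/NP and blue symbols control libraries, and the shape gives the replicate number. Al/NP libraries lie above control libraries for the lysosomal genes and for the macrophage and neutrophil markers and below them for the hepatocyte markers, and control replicate 3 (blue triangle) is lowest for the lysosomal genes but highest of the controls for the macrophage and neutrophil markers.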

How the data were processed

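Polyadenylated RNA from liver tissue was sequenced in 6 libraries, 3 Al/NP and 3 control. The deposited values were whole-number read counts per Ensembl gene without normalization, as the values themselves show. Per the submitters' processing notes, STAR 2.6.1a, featureCounts and DESeq2 1.26.0 were used with GRCm38; strand setting, annotation release and treatment of reads with several matches are not given in the sources used here. Symbols came from a table of gene identifiers (40254 of 41388 matched), and coordinates and exon lengths from GENCODE M21 (GRCm38). Counts were fitted with edgeR 4.0.16 in R 4.3.3 (TMM, filterByExpr with a minimum count of 10, robust dispersion and quasi-likelihood fit) over 15939 genes, with Benjamini-Hochberg adjustment over all of them and a threshold of 0.05. Standard errors were derived from the log2 fold change and its F statistic. DESeq2 1.42.0 and limma-voom (limma 3.58.1) were alternatives, as were other scalings, filters, the replicate block and leaving out each library. Per-library log2 CPM used a prior count of 2. A level of 3 counts corresponds to 0.0826 to 0.104 CPM, for counting error only. No library pair was closer than a chi-square of 30.6 per degree of freedom. The edgeR script was tested on simulated data. Genes and lists were chosen with earlier results of these data known; per-library values were given for genes with an unadjusted p under 0.05, groups apart, a negative fold change or a sign change when 1 library was left out, and at most the 3 genes with the smallest p of each other list were named, beside Tfeb, Tfe3, Mitf and a few set markers. In the hepatocyte list, 9 of 10 symbols matched.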

Additional observations from a re-analysis of the deposited data

How the results depend on the processing

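The count of all genes called, 13 in the main analysis, was 0 with library totals as the only scaling, 0 with at least 50 counts in 3 libraries, 0 without robust estimation, 747 with no filter beyond 1 count and 844 with DESeq2; with each library left out in turn it ranged from 0 to 4. At an unadjusted p under 0.05, edgeR had 2254, 2786 and 3133 genes in the first 3 of these, and 2229 to 3022 with a library left out. With the replicate block the count of genes called was 23, and none of the 32 lysosomal genes was called. Same-numbered libraries deviated together with correlations of -0.05, 0.04 and 0.08, and differently numbered ones with correlations from -0.15 to 0.10. With 3 libraries per group, these values cannot settle whether the numbers pair the samples. With no filter beyond 1 count, 747 of 29551 genes were called, and DESeq2 called 5.07% of genes with an adjusted p. Of the 32 genes, 6 were called with no filter beyond 1 count (Ctsc, Npc2, Grn, Psap, Gusb and Lgmn) and 7 with DESeq2, against 0 otherwise, also with each library left out, and the cause was not tested. Their median log2 fold change, 0.49, ran from 0.40 to 0.55 with libraries left out, as the count at an unadjusted p under 0.05 ran from 12 to 19, and was 0.59 with library totals, where all genes shifted by 0.13. Under these alternatives directions turned for 4 of the 32 genes: Npc1 was 0.011 with library totals, and with libraries left out Ctsk ranged from -0.0052 to 0.62, Fuca1 from -0.014 to 0.10 and Tpp1 from -0.029 to 0.092. With library totals the medians were 0.39 for other hydrolases, 0.0999 for other membrane proteins, 0.36 for V-ATPase subunits, 0.28 for sorting genes, 0.23 for MiT and mTORC1 genes and 0.23 for autophagy genes. With libraries left out, the medians ranged from 0.20 to 0.28 for other hydrolases, from -0.067 to 0.052 for other membrane proteins, from 0.16 to 0.33 for V-ATPase subunits, from 0.098 to 0.22 for sorting genes, from 0.048 to 0.11 for MiT and mTORC1 genes, from 0.061 to 0.16 for autophagy genes and from 0.51 to 0.93 for cystatins. With any library left out 3 cystatins passed the filter, against 2 in the main analysis, so these medians are not over the same genes. The cystatin median was 0.79 with no filter and 0.80 with DESeq2, over 7 genes that include those under the filter. Depth was lowest for Ctsk, with 48 to 128 counts per library.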
